A study of Homo sapiens with 14 samples.

Results

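TCF21, TARID and EYA4 are neighbouring genes on the long arm of human chromosome 6. They were taken from the deposited tables by symbol, as 3 of 62749 genes, and read both as gene sums and transcript by transcript. They were chosen by their low counts in the knockdown libraries in earlier results of these data, so their differences between knockdown and control libraries are given as a description, with no test. RNA was sequenced from 14 xenografts that UMUC3 cells, an established line from a human bladder cancer, had formed in mice. Titles give a control shRNA for the control cells, and the others are labelled FASN knockdown, FASN being the gene of fatty acid synthase, which produces palmitate. Each kind of cell was grown either in regular medium (3 control and 3 knockdown libraries) or with 10% cigarette smoke medium, CSM, before engraftment (4 control and 4 knockdown libraries). All 4 groups share the cell line and the mouse host. The labels do not give the knockdown method, whether the knockdown cells are 1 clone or a pool, how CSM was made, or whether each library is from an animal of its own, so the p-values cover the spread among these libraries, part of which may be technical.

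TCF21 encodes a basic helix-loop-helix transcription factor of mesenchymal cells that binds E-box motifs as a heterodimer with E proteins, and its promoter is methylated and silent in several kinds of carcinoma. TARID is a long noncoding RNA read from the opposite strand, starting beside the TCF21 promoter, and is known to recruit GADD45A and the demethylation machinery to that promoter. EYA4 encodes a phosphatase and transcriptional coactivator that works with homeodomain proteins and is needed in the inner ear and the heart. DNA methylation was not measured here.

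In RefSeq's annotation of GRCh38.p14, EYA4 spans chr6:133240593-133532128 on the plus strand, TARID spans chr6:133502252-133889006 on the minus strand and TCF21 spans chr6:133889113-133895537 on the plus strand. The starts of TARID and TCF21 lie 107 bases apart, head to head. The far end of TARID runs into EYA4, and the bodies of these genes, on opposite strands, overlap over 29877 bases. The 3 genes together cover 654.9 kb. The nearest protein-coding gene before EYA4 in the neighbour list, RPS12, ends 423 kb away, and TBPL1 begins 56.6 kb past the end of TCF21. The strand setting of the library kit is not given in the sources used here, so reads from exons of opposite strands that overlap cannot be told apart. The promoter windows below, 250 bases before and 50 after a RefSeq transcript start (for EYA4 a start at 133241357, 764 bases inside the outer end of the gene), are shown because TCF21 and TARID share most of theirs. Capitals mark the shared stretch in the first pair, which TARID holds as the reverse complement, and CG dinucleotides in the EYA4 window.
TCF21 (chr6:133888863-133889162, plus strand): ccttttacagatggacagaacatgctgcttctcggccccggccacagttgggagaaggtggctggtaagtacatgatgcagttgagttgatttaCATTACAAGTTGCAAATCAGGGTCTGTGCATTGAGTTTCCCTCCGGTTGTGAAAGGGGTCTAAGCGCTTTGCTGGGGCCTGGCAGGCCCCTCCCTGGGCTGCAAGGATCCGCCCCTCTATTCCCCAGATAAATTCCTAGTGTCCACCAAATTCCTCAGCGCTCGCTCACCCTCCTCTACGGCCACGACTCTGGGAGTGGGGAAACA
TARID (chr6:133888957-133889256, minus strand): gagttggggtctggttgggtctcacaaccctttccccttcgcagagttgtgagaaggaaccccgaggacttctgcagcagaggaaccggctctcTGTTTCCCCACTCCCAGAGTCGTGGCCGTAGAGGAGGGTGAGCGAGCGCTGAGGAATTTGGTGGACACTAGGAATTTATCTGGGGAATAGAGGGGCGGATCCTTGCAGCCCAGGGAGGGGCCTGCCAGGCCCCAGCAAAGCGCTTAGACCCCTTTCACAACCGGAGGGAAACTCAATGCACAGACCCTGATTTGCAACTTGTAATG
EYA4 (chr6:133241107-133241406, plus strand): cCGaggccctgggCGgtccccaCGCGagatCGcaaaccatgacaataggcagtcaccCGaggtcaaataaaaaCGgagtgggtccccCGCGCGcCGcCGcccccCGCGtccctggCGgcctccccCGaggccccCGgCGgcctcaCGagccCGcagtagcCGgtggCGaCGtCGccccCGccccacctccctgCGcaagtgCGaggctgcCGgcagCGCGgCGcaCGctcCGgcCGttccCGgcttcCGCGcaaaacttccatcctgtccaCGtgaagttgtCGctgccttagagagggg

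The stretch shared by TCF21 and TARID, chr6:133888957-133889162, was 206 bases long and held 7 CG dinucleotides. The whole TCF21 window held 9 CG dinucleotides at 54.7% GC, and 58.4% of the 35116 promoter windows of the same length held as many or more. The TARID window held 10 CG dinucleotides at 57.3% GC, a count that 56.4% of windows reached. The EYA4 window was of another make-up, with 39 CG dinucleotides at 71.7% GC, a count that 8.71% of windows reached against a median of 14. The E-box motif CANNTG, which reads the same on both strands, occurred 3 times in the TCF21 window, 2 times in the EYA4 window and 0 times in the TARID window, and 68.7% of all windows held it. These are letters in a window, not measured binding sites.

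The libraries held 15810287 (replicate 2 of the knockdown in regular medium) to 45209466 estimated counts, and 7SL, the RNA in the signal recognition particle, took 2.64% to 25.6% of them. FASN itself was 26.0% of the control mean in the knockdown libraries from regular medium, with no overlap between the groups, and its fall (log2 fold change -1.94, Benjamini-Hochberg adjusted p = 0.0245 by edgeR's quasi-likelihood test) was not called when any 1 of these 6 libraries was left out (adjusted p 0.0549 to 0.137), nor under 5 of 10 other settings. After CSM the 4 libraries labelled knockdown had 50.9%, 38.5%, 69.8% and 111% of the control mean, so that replicate 4 went against its label (log2 fold change of the group -0.57, edgeR adjusted p = 0.288, and 0.19 on the log2(TPM + 1) scale). Of 10 urothelial markers, KRT20 and UPK3A were at 0 counts in all 4 groups, and the summed level was 9.88 to 12.1 CPM in control and 17.4 to 30.2 CPM in knockdown libraries from regular medium, without overlap (10.0 to 14.2 and 10.5 to 17.1 CPM after CSM). Among them 0 of 6 tested were called in either medium; KRT5 had a log2 fold change of 2.42 (edgeR adjusted p = 0.495) in regular medium, without overlap. Of 10 fibroblast markers, the summed level was 31.7 to 37.9 CPM in control and 39.3 to 46.2 CPM in knockdown libraries from regular medium, and 33.5 to 50.6 against 16.7 to 37.8 CPM after CSM. LUM was at 0 in the control and FAP at 0 in the CSM knockdown libraries. Of 7 tested fibroblast markers, 0 were called in regular medium and 1, THY1, after CSM (log2 fold change -1.64, edgeR adjusted p = 0.0409, beside 0.74% of all genes called lower). DESeq2 called 2 in each medium, beside 1.53% and 6.44% of all genes. After CSM 4 had positive values, among them COL1A1 (0.84) and DCN (1.14), and 3 negative ones. Besides THY1 these were PDGFRB (-1.47, edgeR adjusted p = 0.103) and COL3A1 (-1.63, adjusted p = 0.337). Both were lower without overlap, beside 7.34% of all genes. In regular medium 4 of 7 were negative, with a median of -0.50, and the lowest was PDGFRB at -2.10. There the groups did not overlap for 4 of the 7, among them ACTA2, which was higher (1.74, edgeR adjusted p = 0.122). Over all genes, 7.05% were lower without overlap in regular medium. At an unadjusted p below 0.05 in edgeR there were 3 of 7 in each medium, beside 9.08% and 18.5% of all genes. Leukocyte markers summed to 6.31 to 9.58 CPM in control and 7.67 to 27.9 CPM in knockdown libraries from regular medium, and to 5.34 to 10.2 and 9.55 to 13.0 CPM after CSM, with 0 of 4 tested called and CD3E at 0 in 3 of the 4 groups. The part of host cells in the results on the 3 genes was not tested.

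TCF21 was expressed in every control library and close to absent from every knockdown library. Its level, in CPM (counts scaled to a common library total), was 26.1, 17.0 and 12.3 in the control libraries from regular medium and 0.455, 0 and 0.204 in the knockdown libraries. After CSM it was 26.0, 20.9, 19.8 and 6.69 CPM in the controls and 0.0296, 0.342, 0.140 and 0 CPM in the libraries labelled knockdown. The lowest control library, replicate 4 after CSM, was still far above the highest knockdown library, and the groups did not overlap in either medium. In estimated counts, the control libraries held 278 to 1156 reads of TCF21 and the knockdown libraries 0 to 13. The 2 libraries at 0 allow up to 0.254 CPM (replicate 2 in regular medium) and 0.0610 CPM (replicate 4 after CSM) at a floor of 3 counts, a limit for counting error only. The group means were 18.5 ± 7.05 (SD, n = 3) against 0.220 ± 0.228 CPM (SD, n = 3) in regular medium and 18.4 ± 8.25 (SD, n = 4) against 0.128 ± 0.155 CPM (SD, n = 4) after CSM. The knockdown means were thus 1.19% and 0.697% of the control means, with fitted log2 fold changes of -6.17 (SE 0.88) and -7.27 (SE 0.81). In bulk tissue, fewer cells that express a gene and less of its RNA per cell cannot be told apart.

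TARID, the antisense RNA, was low in the same libraries, with more left in some of them. In regular medium it stood at 8.21, 14.5 and 8.73 CPM in the controls and at 0.455, 0.254 and 0.524 CPM in the knockdown libraries. After CSM the controls had 8.36, 8.21, 10.4 and 8.66 CPM and the libraries labelled knockdown 1.48, 0.923, 0.477 and 0.0810 CPM. Replicate 1 of the CSM knockdown held the most, 16.6% of the control mean, and replicate 4 the least, 0.912%. The means were 10.5 ± 3.51 (SD, n = 3) against 0.411 ± 0.140 CPM (SD, n = 3) in regular medium and 8.92 ± 1.03 (SD, n = 4) against 0.740 ± 0.600 CPM (SD, n = 4) after CSM. The knockdown means came to 3.92% and 8.30% of the control means, with log2 fold changes of -4.60 (SE 0.70) and -3.61 (SE 0.56).

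EYA4 was the most even of the 3 genes among the control libraries from regular medium. There it was measured at 15.9, 16.5 and 14.4 CPM, against 0.561, 0.254 and 0.437 CPM in the knockdown libraries. After CSM the control libraries had 10.9, 9.10, 16.8 and 10.5 CPM and those labelled knockdown 1.60, 0.513, 1.21 and 0.346 CPM. The groups did not overlap, and the highest knockdown library, replicate 1 after CSM, was the one that was also highest in TARID. Means were 15.6 ± 1.05 (SD, n = 3) and 0.417 ± 0.154 CPM (SD, n = 3) in regular medium, and 11.8 ± 3.42 (SD, n = 4) and 0.915 ± 0.587 CPM (SD, n = 4) after CSM. The knockdown means were 2.68% and 7.74% of the control means, and the log2 fold changes -5.15 (SE 0.54) and -3.69 (SE 0.43).

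All 3 genes were lower without overlap in both media, in a table where 7.05% of the 22560 tested genes were lower without overlap in regular medium and 7.34% after CSM; this contrast chose the genes, so nothing is read from that count. All 3 passed the filter on low counts, for which the control libraries alone, at 278 or more counts of each gene, were enough. Of the knockdown libraries, 1 of 3 in regular medium and 1 of 4 after CSM held 10 or more counts of TCF21, against 2 of 3 and 3 of 4 for TARID and 2 of 3 and 4 of 4 for EYA4. The 2 sets of contrasts use separate control libraries, and 7 knockdown libraries are behind them in all. Without replicate 4 of the CSM knockdown, the log2 fold changes after CSM were -6.76 for TCF21, -3.20 for TARID and -3.39 for EYA4.

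**Figure D1:**
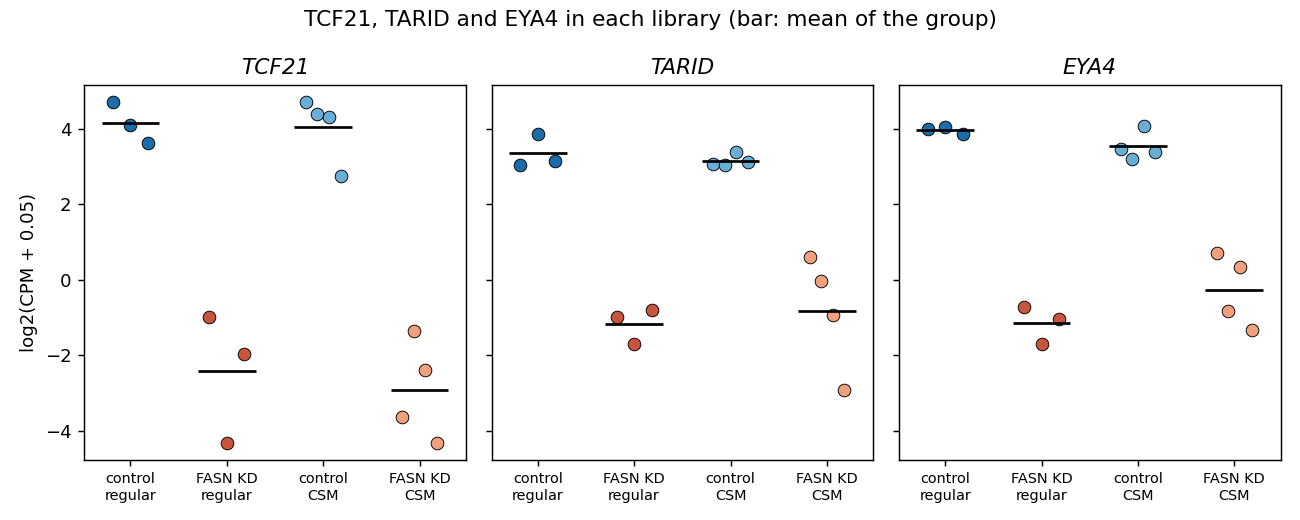
Level of TCF21, TARID and EYA4 in each of the 14 libraries, as log2(CPM + 0.05) on the vertical axis, by group; each point is a library and each bar the mean of its group on that scale. In every panel the control libraries sit above all knockdown libraries, and the lowest TCF21 points are the 2 libraries at 0 counts.

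The 3 genes were low over the whole range of FASN levels among the knockdown libraries. In the knockdown libraries from regular medium FASN stood at 22.1% to 29.1% of the control mean, and TCF21 at 0% to 2.47%. The library with 111% of FASN, replicate 4 after CSM, had 0% of TCF21, 0.912% of TARID and 2.92% of EYA4. The highest TARID and EYA4 values, 16.6% and 13.5%, came from replicate 1 after CSM, with 50.9% of FASN. The knockdown libraries with the highest 7SL share, 25.6%, and with the lowest, 2.64%, held 0% and 0.764% of the control level of TCF21.

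**Figure D2:**
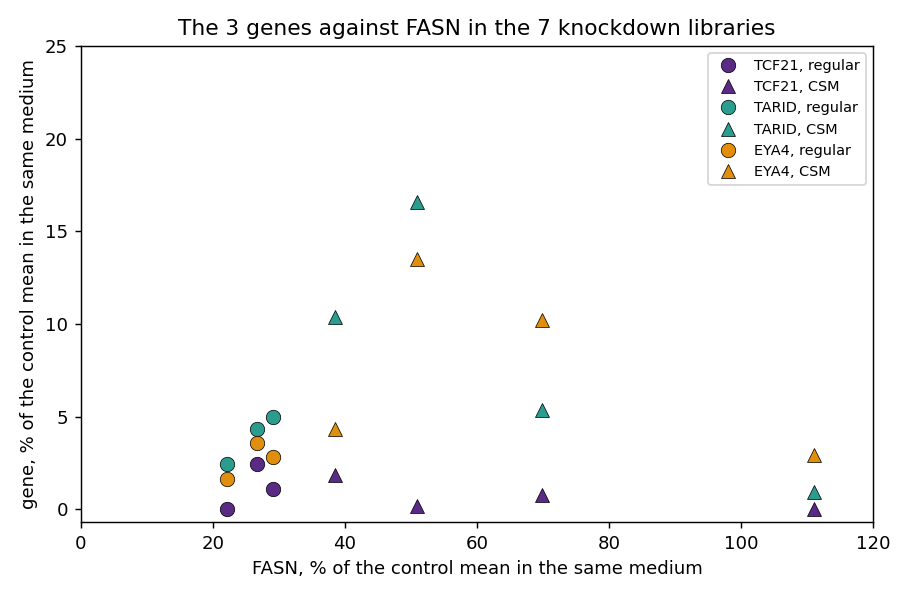
Level of TCF21, TARID and EYA4 (vertical axis, percent of the mean of the control libraries in the same medium, drawn up to 25%) against that of FASN (horizontal axis, same unit) in the 7 knockdown libraries, circles for regular medium and triangles for CSM. All points lie at or below 16.6%, also at the right, where FASN was 111%.

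CSM before engraftment, a contrast that did not choose the genes, made no called difference in any of the 3. In the control cells the log2 fold change of CSM against regular medium was -0.01 for TCF21 (SE 0.61, 95% interval -1.31 to 1.30), -0.23 for TARID (SE 0.54, interval -1.37 to 0.90) and -0.40 for EYA4 (SE 0.40, interval -1.26 to 0.46). Each had an adjusted p of 1.00 by the quasi-likelihood test of edgeR after Benjamini-Hochberg adjustment, and the groups overlapped for all 3. These intervals leave room for changes of more than 2-fold in each of the 3 genes. The background was 0% of genes called (0 of 22560, with 316 at an unadjusted p below 0.05 and 6 called by DESeq2). The TCF21 group means had the order control, CSM control, knockdown, CSM knockdown. Within the first pair and within the last pair the groups overlapped, and the last pair has no test, as given below. The step between the pairs is the contrast that chose the gene.

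Among the knockdown cells, the fitted difference of CSM against regular medium was -1.11 for TCF21 (SE 0.93, interval -3.08 to 0.87), 0.75 for TARID (SE 0.63, interval -0.59 to 2.09) and 1.05 for EYA4 (SE 0.49, interval 0.02 to 2.09), all on the log2 scale. EYA4 came to an unadjusted p of 0.0460 and an adjusted p of 0.744 by edgeR's quasi-likelihood test, and TARID to an adjusted p of 0.864. TCF21, at 0 to 13 reads per knockdown library, did not pass the filter on the knockdown libraries alone, so its value carries no p. No gene of the table was called there (0%, with 1504 at an unadjusted p below 0.05 and 52 by DESeq2). The interaction, the knockdown difference after CSM minus that in regular medium, was -1.10 (SE 1.11) for TCF21, 0.99 (SE 0.82) for TARID and 1.45 (SE 0.63) for EYA4. Neither TARID nor EYA4 passed edgeR's test after adjustment (adjusted p = 0.945 and 0.942; unadjusted p = 0.0357 for EYA4), and the TCF21 value again carries no p. Of all genes, 0% were called (1178 at an unadjusted p below 0.05, 7 by DESeq2). The gap between the media in the remaining 3 to 54 reads of EYA4 or TARID per library was therefore not resolved.

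Per length, TCF21 was the most abundant of the 3 in most control libraries. In TPM, which corrects for transcript length as well as library total, the control libraries had 3.54 to 13.6 for TCF21, 2.49 to 7.39 for TARID and 2.14 to 4.71 for EYA4. TCF21 had the highest TPM in 6 of 7 control libraries, and TARID was above EYA4 in 7 of 7. In the knockdown libraries TPM reached 0.195 for TCF21, 2.42 for TARID and 0.838 for EYA4. The TARID maximum, from replicate 1 after CSM, came close to the lowest control library on this scale, with 21.4 of its 50 reads on TARID-202, a model of 753 bases.

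Both annotated TCF21 transcripts were low in the knockdown libraries. In the 7 control libraries together, TCF21-202 (1280 bases) held 2885 estimated reads, 59.7% of the gene, and TCF21-201 (3010 bases, chr6:133889335-133895553 in GENCODE v29) held 1945. The share of TCF21-202 ran from 51.6% to 70.1% between control libraries. The 7 knockdown libraries held 26 reads of TCF21-202 and 10 of TCF21-201, so no share is given there.

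TARID has 12 transcripts in the tables, 9 of them with at least 10 reads in the controls. TARID-212 led with 1023 control reads (22.5% to 57.5% of the gene by library), then TARID-205 with 730 (20.3% to 45.6%), TARID-207 with 233 and TARID-210 with 199. TARID-212 was found in 7 of 7 control libraries at 69.0 to 297 reads, and in 6 of 7 knockdown libraries at no more than 16.6 reads. TARID-205, whose first exon starts beside the TCF21 promoter and whose last lies within EYA4 (chr6:133502252-133888982), held 70.5 to 152 reads per control library and 0 to 4.61 reads per knockdown library. TARID-207 and TARID-210 start inside TCF21 (chr6:133884722-133892802) and cover 98 and 194 bases of TCF21 exons on the other strand, so their counts can hold reads of TCF21. The leading model that could be placed away from TCF21 exons, TARID-205, was low in the knockdown libraries as well. TARID-205 and TARID-202 each cover 90 bases of EYA4 exons on the other strand, so their counts can hold reads of EYA4. In turn, EYA4-204, EYA4-205 and EYA4-207 cover 90 bases of TARID exons. One model went the other way: TARID-211 held 0 reads in the controls and 13 in the knockdown libraries, at 1 to 5 reads in 5 of 7. It has the same outer ends as TARID-207 and TARID-210 and also covers 98 bases of TCF21 exons. The split of reads among these models is uncertain, so no opposite change is read from it.

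EYA4 reads were spread over more models. Of 29 transcripts, 17 had at least 10 control reads, led by EYA4-210 with 991, EYA4-204 with 645, EYA4-216, annotated as a target of nonsense-mediated decay, with 497, EYA4-207 with 405 and EYA4-205 with 316. The split between them was not stable: EYA4-210 took 0% to 37.5% of the gene by control library, with 0 in replicate 3 from regular medium, while EYA4-216 took 10.3% to 19.0%. EYA4-216 was present at 43.3 to 99.0 reads in all 7 control libraries and at 0 to 17.2 reads in the knockdown libraries. Each of the 17 transcripts had fewer reads in the knockdown libraries together than in the controls. The 17 were kept for their control reads, and this contrast chose the gene, so nothing is read from that shared direction. EYA4-229 had 0 control reads and 42 knockdown reads, of which 34.2 were in replicate 3 after CSM, and EYA4-202 and EYA4-211, also at 0 in the controls, had 4 and 5. In all, the 3 genes held 4830, 2512 and 3560 control reads and 36, 131 and 163 knockdown reads.

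**Figure D3:**
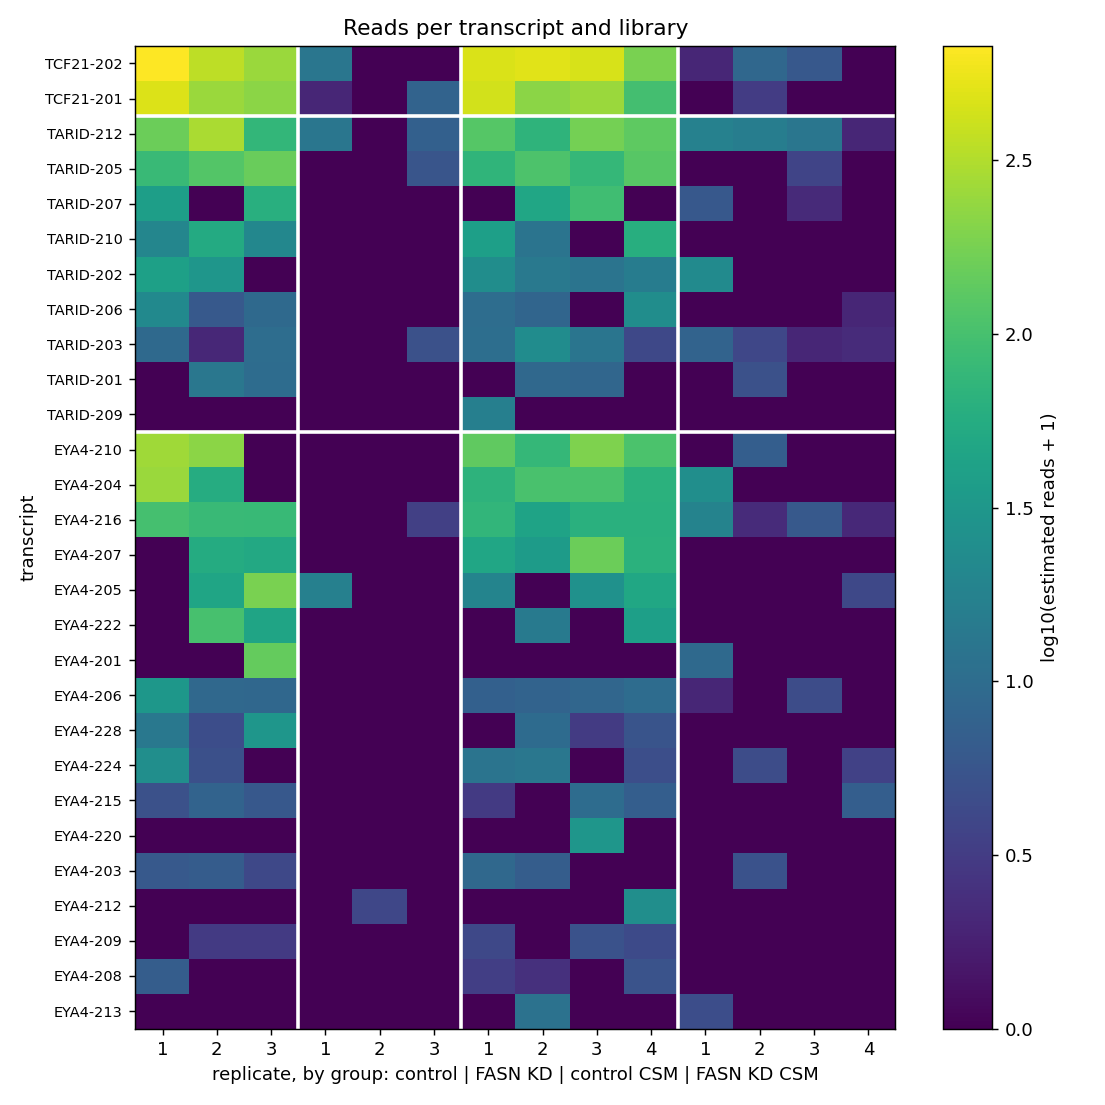
Estimated reads, as log10(reads + 1) in colour, for the 28 transcripts of TCF21, TARID and EYA4 with at least 10 reads in the control libraries (rows) in each of the 14 libraries (columns, by group). Of the 28, 7 had reads in all 7 control libraries, 16 in 4 to 6 and 5 in 1 control library, while 24 had reads in at most 3 of the 7 knockdown libraries. The rows were picked by their control reads, so nothing is read from these counts.

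Genes around the 3 were compared in the same way, from a list of 25 neighbours, of which 24 were in the tables and 12 were tested. None was called in any of the 4 contrasts, against 0.204% of all genes called for knockdown in regular medium and 1.17% after CSM. At an unadjusted p below 0.05 there were 2 of 12 in regular medium and 6 of 12 after CSM, beside 9.08% and 18.5% of all genes, and DESeq2 called 0 and 4, beside 1.53% and 6.44%. The median log2 fold change of the 12 was -0.29 in regular medium (0.02 over all genes) and -0.77 after CSM (0.01 over all genes). TBPL1, the TBP-related factor gene next after TCF21, had log2 fold changes of 0.01 (SE 0.31) and -0.90 (SE 0.27; adjusted p = 0.106 by edgeR). The vesicular polyamine transporter gene SLC18B1 and RPS12, a gene for a small ribosomal subunit protein, lie on the other side and had -0.71 and -0.83, and -0.48 and -0.70. SLC2A12, for a glucose transporter, had -1.07 and -1.51, SGK1, for a serum- and glucocorticoid-induced kinase, -1.42 and -0.84, and CCN2, for a matricellular growth factor, -0.55 and -1.27. The others of the list, ENPP1, STX7, VNN1, HBS1L, MYB and AHI1, lay between -1.44 and 0.74 in both media. Without overlap between groups, 1 of the 12 was lower in regular medium (SLC18B1, against 7.05% of all genes), and after CSM 4 were lower (ENPP1, SLC18B1, TBPL1 and SGK1, against 7.34%) and 1 higher (AHI1, against 8.86% of all genes).

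Within 3 Mb of the TCF21 start there were 111 other genes, 28 of them tested, and 0 were called by edgeR in either medium (lowest adjusted p = 0.451 and 0.0753). These 28 include the 12 of the neighbour list. Their median log2 fold change was 0.02 in regular medium and -0.08 after CSM, with 13 and 16 of them negative. The lower medians of the list thus did not extend to the whole window. Inside the stretch from EYA4 to TCF21, 6 other genes had reads, all few. The pseudogene HSPE1P21, in the part where EYA4 and TARID overlap, had 88 control reads and 4 knockdown reads, the latter in 1 library, and was not called (adjusted p = 0.628 and 0.0924); it may share reads with its parent HSPE1. LINC01312 had 37 control reads and 0 knockdown reads, and FTH1P26 31 and 0. ENSG00000223542 had 32 and 2, ENSG00000272428 8 and 0, and ENSG00000234567 6 and 5. Apart from ENSG00000234567, most reads of these small genes were thus in control libraries too. The 8 reads of ENSG00000272428 came from 1 library, and apart from HSPE1P21 the counts did not reach the test. All 6 lie within the bodies of EYA4 or TARID. With the strand setting not given, whether their reads come from those genes was not tested.

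**Figure D4:**
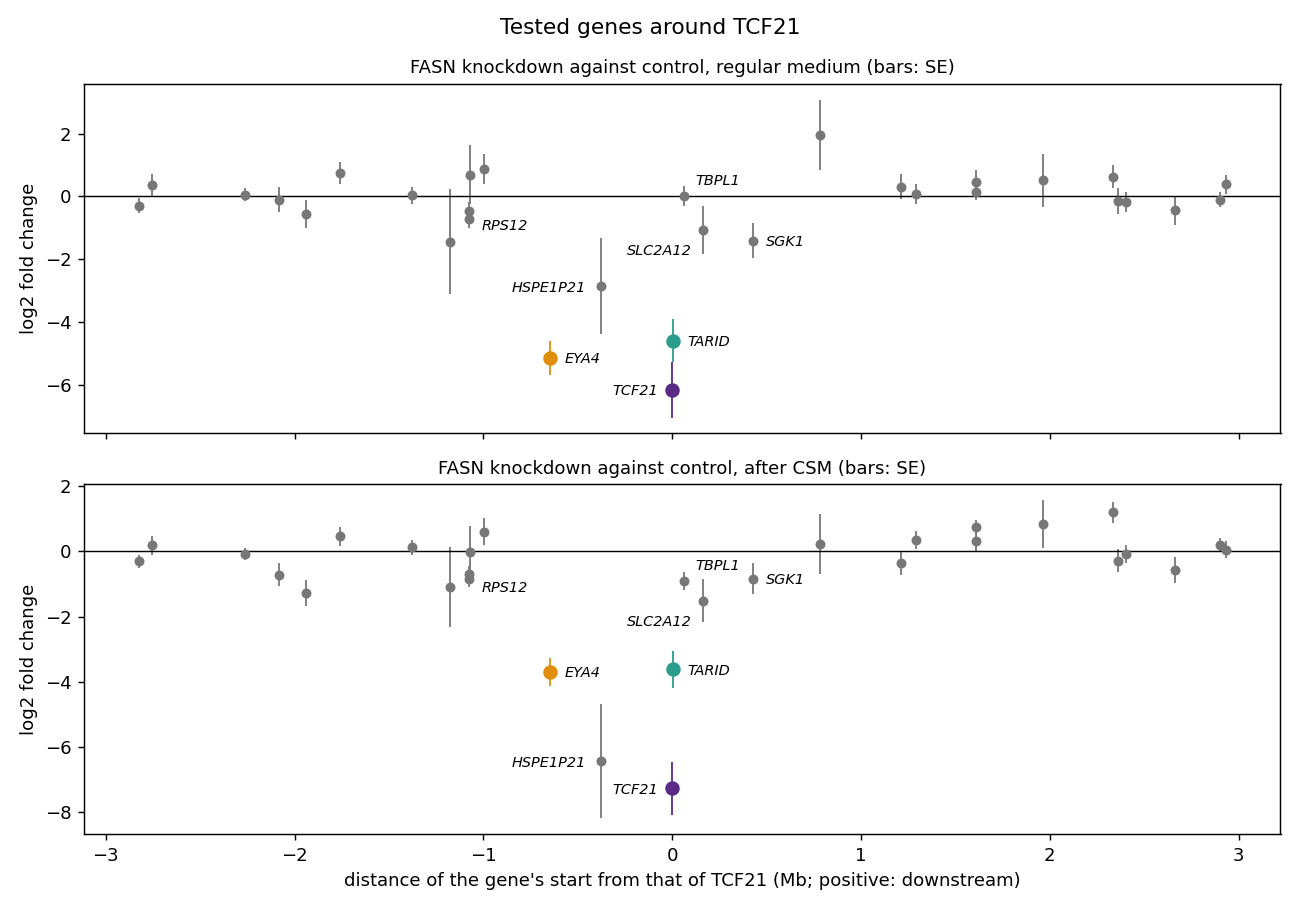
Fitted log2 fold change of FASN knockdown against control (vertical axis, bars are SE) for the tested genes within 3 Mb of TCF21, by the distance of each gene's start from that of TCF21 in Mb, as annotated in GENCODE v29; top, regular medium, bottom, after CSM. TCF21, TARID and EYA4, in colour, lie at -3.61 or below, and of the other genes HSPE1P21, with 92 reads in all, is the one near them.

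EYA4 belongs to a network of factors that includes the PAX, EYA and DACH families, of which 12 of 20 other genes were tested. EYA1, a paralog of EYA4, was lower in the CSM knockdown libraries (log2 fold change -2.40, SE 0.54, adjusted p = 0.0482 by edgeR's quasi-likelihood test), from 0.908 to 1.54 CPM in the controls to 0.0296 to 0.309 CPM. It was not called when any 1 of those 8 libraries was left out (adjusted p 0.0793 to 0.112), and in regular medium it had -1.77 (SE 0.60, adjusted p = 0.365). EYA2, another paralog, named after its values were seen, had 88 and 53 reads in the control groups and 2 and 5 in the knockdown groups. PAX9, the gene of this list with the smallest p in regular medium, had a log2 fold change of -2.43 (SE 0.64, adjusted p = 0.202 by edgeR), and 8 of 12 and 6 of 12 genes had negative values in the 2 media.

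Of the partners and relatives of TCF21 among helix-loop-helix factors, 11 of 16 were tested and 0 were called. At an unadjusted p below 0.05 in edgeR there were 3 in regular medium and 1 after CSM, beside 9.08% and 18.5% of all genes. DESeq2 called 0 and 1, beside 1.53% and 6.44%. The E protein gene TCF4 had log2 fold changes of -1.06 (SE 0.32, adjusted p = 0.279) and -0.92 (SE 0.28, adjusted p = 0.102), and TCF23 had 1.03 (SE 0.40) and 0.52 (SE 0.34). TCF4 stood at 20.5 ± 0.971 CPM in controls and 9.73 ± 4.26 CPM in knockdown libraries from regular medium (SD, n = 3 each). In the CSM contrasts the smallest p-values were those of TWIST1 (0.72) and TCF4 (0.36) in control cells and of TCF4 (0.51) and ID1 (1.23) in knockdown cells, given as log2 fold changes.

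Genes of the DNA methylation machinery, which TARID is known to act through, had 14 of 16 members tested and 0 called in either medium. At an unadjusted p below 0.05 in edgeR there were 2 in each medium, beside 9.08% and 18.5% of all genes. DESeq2 called 0 in each, beside 1.53% and 6.44%. TDG, the glycosylase of active demethylation, had a log2 fold change of 0.58 (SE 0.25, adjusted p = 0.497 by edgeR) in regular medium. GADD45B had -0.97 (SE 0.44) and -0.92 (SE 0.38) in the 2 media, and the methyl-CpG binder MBD2 -0.55 (SE 0.23) after CSM. GADD45A, given here for its link to TARID and not for its p, had 0.48 (SE 0.51) and -0.10 (SE 0.44) in the 2 media. Neither value was called (edgeR adjusted p = 0.876 and 0.923). In the CSM contrasts APOBEC3B (0.62) and DNMT1 (0.17) in control cells and DNMT1 (0.41) and TDG (-0.43) in knockdown cells had the smallest p-values. The list's median was -0.06 and -0.01, beside 0.02 and 0.01 over all genes. Polycomb repressors, with 16 of 16 tested, had 0 called by edgeR or DESeq2, and medians of -0.07 and -0.12. At an unadjusted p below 0.05 in edgeR there were 0 and 3 of the 16, beside the same 9.08% and 18.5% of all genes. PHC1 had -0.48 (SE 0.25) and -0.62 (SE 0.22), and BMI1 had -0.71 (SE 0.25) after CSM. For CSM against regular medium, PHC2 in control cells (log2 fold change 0.29) and RNF2 (-0.51) and RBBP7 (-0.35) in knockdown cells were among the genes of the list with the smallest p-values. Over the 4 lists, 0 of 53 genes were called in regular medium and 1 of 53 after CSM, beside 0.204% and 1.17% of all genes.

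Across all 14 libraries the genes most like the 3 in log2 CPM, among 12669 protein-coding genes at a mean of at least 1 CPM, were others that were also low in the knockdown libraries. The libraries form 2 clusters, control and knockdown, so these coefficients describe that split and are given with no p. Among the 5 most alike, TCF21 had SVEP1 (Pearson r 0.962), SPANXA1 (0.961), SPANXD (0.959) and AJAP1 (0.958). Those of TARID included EYA4 (0.967), ZNF704 (0.967), TRPC4 (0.955) and ADGRL3 (0.948), and those of EYA4 included AJAP1 (0.974), TMEM47 (0.969), TRPC4 (0.966) and ZNF704 (0.958). SPANXA1 and SPANXD are near-identical copies on the X chromosome, and their split between copies is uncertain. SVEP1, a matrix adhesion protein gene, ran from 3.63 to 13.3 CPM in controls and from 0 to 0.491 CPM in knockdown libraries, while ZNF704 kept 16.6 to 27.7 CPM against 47.3 to 67.3 CPM.

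Within the 7 control libraries no pair of the 3 genes passed a two-sided permutation test of correlation. The correlation of log2 CPM was r = -0.03 for TCF21 and TARID (exact permutation p = 0.966; Spearman rho = -0.64, p = 0.139), r = 0.20 for TCF21 and EYA4 (exact permutation p = 0.689; rho = 0.07, p = 0.906) and r = 0.57 for TARID and EYA4 (exact permutation p = 0.137; rho = 0.57, p = 0.200). Adjusted over the 3 pairs, the exact permutation p of r was 0.966, 0.966 and 0.411, and that of rho 0.300, 0.906 and 0.300. Without the 2 libraries in which the first-named gene lay farthest from its median, r was -0.86, -0.30 and 0.12. Leaving out the extremes of a gene narrows its range, so these values cannot decide whether TARID and EYA4 are related. With any 1 control library left out, that pair had r = 0.53 to 0.75, and on log2(TPM + 1) it had r = 0.84 (exact permutation p = 0.0331, adjusted p = 0.0994), falling to -0.23 without the 2 farthest libraries. TCF21 was lowest in replicate 4 after CSM, at 6.69 CPM, where TARID, at 8.66 CPM, and EYA4, at 10.5 CPM, were within the range of the other controls.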

How the data were processed

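Total RNA of 14 xenografts was sequenced. The submitters' processing notes name FastQC, cutadapt, Salmon and GRCh38; for tool versions, strand setting and annotation, the sources used here give none. Per the file headers, the authors deposited for each library Salmon's expected counts, which are not normalised, and TPM, for 252048 human and no mouse transcripts. Summing the expected counts by gene ID and rounding gave whole numbers for 62749 genes. edgeR 4.0.16 (R 4.3.3; TMM, filterByExpr, which kept 22560 genes, quasi-likelihood test, all 14 libraries in 1 fit, 1 coefficient per group) gave log2 fold changes, and Benjamini-Hochberg adjustment ran over all tested genes; a gene was called at an adjusted p below 0.05. SE is the absolute log2 fold change divided by the square root of F. CPM uses TMM-scaled totals. Transcripts were placed by GENCODE v29 only where its length equalled the deposited one; gene positions and promoters are from RefSeq (GRCh38.p14). Correlations were tested by exact permutation in scipy 1.17.1.

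The 3 genes and all gene lists (neighbours, network, helix-loop-helix partners, methylation, Polycomb, host and urothelial markers) were chosen with earlier results of these data known. Named list genes were, per contrast, up to 3 called members or the 2 with the smallest p; of the neighbours, all tested ones; and the 5 protein-coding genes most alike each of the 3. Some genes that this rule names are not reported here. On data simulated for CSM against regular medium in control cells (21875 genes), the fit called 24% of genes changed by 1 on the log2 scale, 78% at 2 and 100% at 4 and at 6. Of all its calls, 5.62% were false. The changed genes were drawn from those at a mean of at least 2 CPM, so these rates do not cover lower genes. Replicate numbers did not pair the libraries: 5 of 19 same-numbered pairs had a correlation of deviations over 0.1. Alternatives were DESeq2 1.42.0, RLE or upper-quartile factors, other filters, only the 2 groups, a replicate block, a length offset, limma 3.58.1 on log2(TPM + 1) or log2(TPM + 0.1), and each library left out in turn.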

Additional observations from a re-analysis of the deposited data

Results flagged for a closer look

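Among 32 sets of 4 libraries (TCF21, TARID, EYA4, FASN and the 12 tested neighbours, in each group after CSM), 2 had a library far from the other 3 (gap over range above Dixon's critical value of 0.829); chance gives about 1 in 20. SLC18B1 stood at 10.6 CPM in replicate 3 of the CSM controls and at 7.03 to 7.20 CPM in the others. VNN1 was at 0.684 CPM in replicate 2 of the CSM knockdown libraries and at 0 to 0.0842 CPM in the others. TCF21, TARID and EYA4 had no such library.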

How the results depend on the processing

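The log2 fold changes of TCF21, TARID and EYA4 for knockdown against control were negative under all alternatives run. On log2(TPM + 1), where the pseudocount shrinks low genes, they were -3.02, -2.36 and -2.19 in regular medium and -2.96, -1.42 and -1.51 after CSM. On log2(TPM + 0.1) they were -5.41 (TCF21), -2.39 (TARID) and -2.74 (EYA4) after CSM and -4.41 (EYA4) in regular medium, and with the length offset TARID was -5.12. Leaving out 1 library gave -7.02 to -5.80, -4.81 to -4.30 and -5.40 to -4.94 in regular medium and -8.37 to -6.76, -4.21 to -3.20 and -4.09 to -3.39 after CSM. CSM against regular medium in control cells turned for TCF21 with the replicate block (0.42) and the length offset (0.042) and for TARID with the replicate block (0.12); without 1 library TCF21 ran from -0.24 to 0.35, TARID from -0.37 to 0.065. The interaction of TCF21 was 0.068 and 0.087 on the 2 TPM scales. None of these CSM or interaction values was called. With only the 2 groups, TCF21 did not pass the filter in CSM knockdown against knockdown, and no interaction can be had.

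The TPM scales moved the median of all genes to 0.39 and 0.63 after CSM (knockdown) and to 0.59 and 0.88 for CSM in knockdown cells. There MBD2 (0.18, 0.20), PHC1 (0.10, 0.12), FASN (0.19, 0.19), SGK1 (0.22, 0.30), TDG (0.49, 0.57), RNF2 (0.59, 0.64) and RBBP7 (0.37, 0.38) turned, as did DNMT1 in control cells (-0.21, -0.21; -0.19 with the length offset), none called. Neighbours called were 1, 2 and 1 with no filter (knockdown in regular medium, after CSM, and CSM in knockdown cells) and 4 by DESeq2 after CSM. Of the 4 pathway lists, DESeq2 called 1 in regular medium and 2 after CSM and the fit with no filter 3, 3 and, for CSM in knockdown cells, 2. Over all genes, DESeq2 called 1.53% in regular medium and 6.44% after CSM. The fit with no filter called 389, 1178 and, for CSM in knockdown cells, 175 of 43484. The 1 call after CSM, EYA1, became 0 calls with upper-quartile factors, the filter of 2 CPM, the replicate block, both TPM scales, the length offset, only the 2 groups and each library left out (0 to 0). Over all genes, calls ran from 17 to 389 in regular medium and 42 to 1452 after CSM; the cause of these shifts was not tested. The correlation of TCF21 and TARID was 0.40 on TPM (adjusted p = 0.545), and without 1 control library -0.33 to 0.091; that of TCF21 and EYA4 ran from -0.26 to 0.43. FASN, called in regular medium, was not called with the replicate block, the length offset, only the 2 groups or either TPM scale (adjusted p up to 0.762). With the replicate block calls over all genes went from 46 to 17 in regular medium and from 264 to 59 after CSM; 0 of 14 libraries correlated best with their own number. Counts of 0 to 54 per knockdown library limit what can be said of differences among them.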
